A study of Mus musculus with 6 samples.

Results

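The proapoptotic members of the BCL-2 family examined here were the effectors Bax and Bak1 and the BH3-only genes Bbc3, Pmaip1, Bcl2l11, Bid, Bad and Bmf. They were selected by gene symbol, which gave 8 genes of the 56246 in the expression table, 25351 of which had a symbol. The same symbols were looked up in the splicing tables, which list 20 events in 6 of these genes.

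RNA was sequenced from CD4+ T cells of mice in which the gene of the spliceosomal protein U5-52K (also CD2BP2, gene symbol Cd2bp2) was deleted in T cells. The 3 conditional knockout (cKO) libraries carried the U5-52K f/f CD4-Cre tg genotype. Control replicates 1 and 2 were U5-52K wt/f CD4-Cre tg, which have 1 floxed allele and the Cre transgene, and Control replicate 3 was U5-52K f/f without Cre. All 6 libraries came from sorted CD4+ T cells of pooled spleen and peripheral lymph nodes, with no treatment given, and the methods give male mice of 8 to 12 weeks. CD4-Cre is active from the double-positive stage of thymocyte development, so the peripheral cells had lost the gene, where deletion worked, before they left the thymus. The methods give 3 cKO and 3 control mice for the sequencing. The labels do not tie a mouse to a library or say which libraries shared a sort. A p-value here therefore reflects how much these 6 libraries scatter, part of which may be technical.

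The intrinsic pathway of apoptosis is decided at the outer mitochondrial membrane. Bax and Bak1 proteins form the pores that release cytochrome c, antiapoptotic proteins such as Bcl2, Bcl-xL (gene Bcl2l1) and Mcl1 hold them and the BH3-only proteins in check, and BH3-only proteins either occupy the antiapoptotic proteins or activate the effectors directly. In T cells Bim (gene Bcl2l11) is known for the death of autoreactive thymocytes and of activated cells at the end of a response, while Puma (Bbc3), Noxa (Pmaip1) and Bax are known transcriptional targets of p53. mRNA level is only 1 layer of this control, since Bid is activated by cleavage and Bad by loss of phosphorylation.

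Normalized counts are reads per gene divided by a size factor of the library. The libraries held 56995121 to 82286366 reads in genes. Cd2bp2, the deleted gene, was at 2612.6 ± 10.6 (SD, n = 3) in Control and 832.0 ± 81.4 (n = 3) in cKO libraries, 31.8% of Control (log2 fold change -1.65, limma adjusted p = 0.00137). Control replicates 1, 2 and 3 were at 2623.5, 2602.4 and 2611.9. The wt/f libraries with Cre and the f/f library without Cre were thus at a similar level. The CD4 T cell markers were present in every library, with a summed level of 409877 to 475261 in Control and 384420 to 412304 in cKO libraries over the 7 of 8 listed markers found by symbol. All 7 had negative log2 fold changes, with a median of -0.13, and none passed the test. An unadjusted p under 0.05 (limma) was reached by 2 of 7, against 16.7% of all genes. The conditions did not overlap in 2 of 7, against 24.1% of all genes. Control replicate 3 and cKO replicate 1 stood apart: the summed level of the 3 haemoglobin genes found was 4032 and 3042 there and 140 to 462 in the other 4 libraries. Control replicate 3 was also the Control library without Cre, so effects of library and of genotype cannot be told apart in it. Results below that leave it out, or set it against cKO replicate 1, also change the Control genotype. cKO replicate 1 also had the highest summed level of the 9 myeloid markers (19295, against 3783 and 4924 in the other cKO libraries and 2406 to 4641 in Control) and of the 6 cycling-cell markers (10447 against 2906 to 4160 in the other 5). Markers of other cells moved with the condition. The 6 B cell markers summed to 7808 to 10879 in Control and 3352 to 6255 in cKO libraries, with none passing the test. All 6 had negative log2 fold changes, with a median of -1.11. Each had an unadjusted p under 0.05 (limma), against 16.7% of all genes tested. The conditions did not overlap in 5 of them, against 24.1% of all genes. The 4 dendritic cell markers summed to 2113 to 3229 in Control and 10509, 3811 and 4319 in cKO libraries, and Zbtb46 passed the test (1.003 higher on the log2 scale, limma adjusted p = 0.0230; 0.0742 without Control replicate 3). Itgax (1.36), Flt3 (1.17) and Siglech (0.07) did not pass (limma adjusted p = 0.170, 0.353 and 0.981). All 3 NK cell markers had positive log2 fold changes, with a median of 1.12. The conditions did not overlap in 2 of them, beside the same 24.1% of all genes. Ncr1 was 1.44 higher (limma adjusted p = 0.0608). The part of such cells in the results was not tested. Fewer cells of a type and less RNA per cell cannot be told apart in bulk libraries.

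Of the 8 genes, Bax was the one that rose in cKO CD4+ T cells by the criteria used (adjusted p under 0.05 and a change above 1 on the log2 scale). Pmaip1 and Bbc3 had the largest mean differences but varied between cKO libraries and did not pass. Bak1, Bad, Bid, Bcl2l11 and Bmf had mean differences of 0.34 or less on the log2 scale. All 8 genes exceeded the expression minimum (a mean normalized count of 100 in either condition) in both conditions, so none entered the test through cKO alone. The 1 called gene of 8 stands beside 62 of 11001 genes tested over the whole table, or 0.564%, of which 49 were higher (0.445%) and 13 lower in cKO. At an adjusted p under 0.05 alone it was again 1 of 8, against 0.973% of all genes in either direction and 0.673% higher in cKO.

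**Figure D1:**
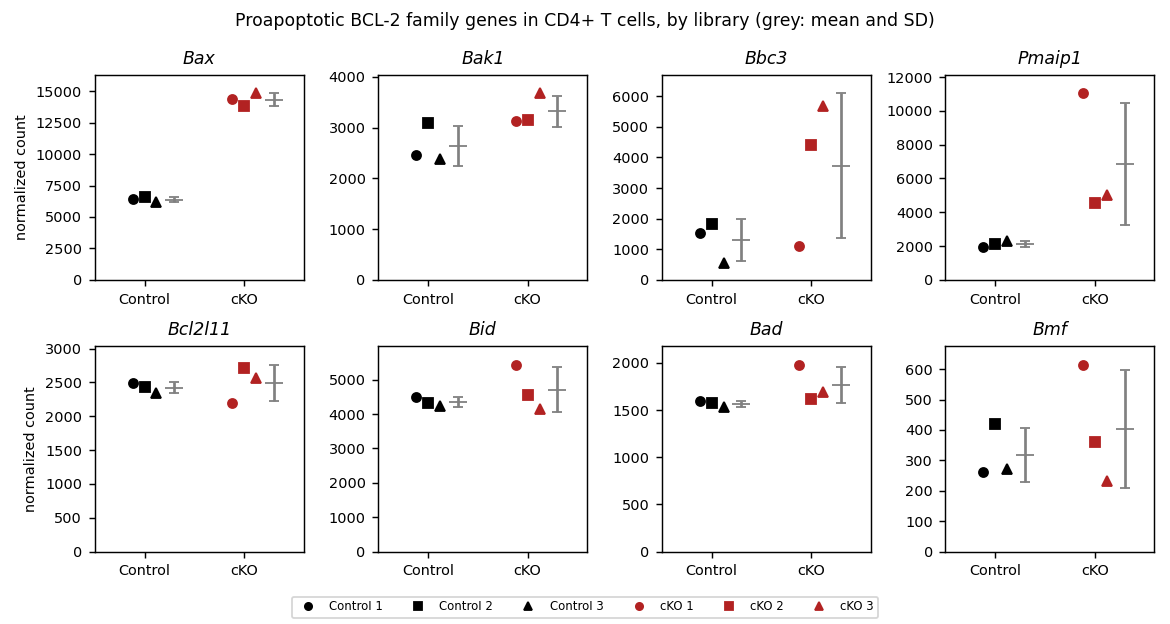
Normalized count (y axis, from 0, a separate scale for each gene) of the 8 proapoptotic genes in the 3 Control libraries (black) and the 3 cKO libraries (red), with the mean and SD of each condition in grey. Bax forms 2 tight groups, at 6163 to 6570 in Control and 13821 to 14823 in cKO, whereas the cKO libraries of Bbc3 and Pmaip1 spread widely, with cKO replicate 1 the lowest of them for Bbc3 and the highest for Pmaip1.

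Bax was at 6429, 6570 and 6163 normalized counts in Control and 14370, 13821 and 14823 in cKO libraries. The lowest cKO library lay far above the highest Control library, and the spread within a condition was small. The means were 6387 ± 207 and 14338 ± 502 (SD, n = 3 each), a 2.24-fold difference and a log2 fold change of 1.17 ± 0.077 (SE; 95% interval 0.98 to 1.35; limma adjusted p = 0.00137). Among the libraries that stood apart, cKO replicate 1 was 2.33-fold Control replicate 3, and the other cKO libraries averaged 2.20-fold the other Control libraries. Bax exons overlap those of Gm45808 on the same strand, and whether reads there were assigned to Bax is not stated.

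Bak1, which forms the same kind of pore and is resident at mitochondria, was at 2450, 3080 and 2374 in Control and 3136, 3140 and 3677 in cKO libraries. The groups did not overlap, but Control replicate 2 lay just under the lowest cKO libraries. The difference was 1.26-fold, or 0.34 ± 0.13 on the log2 scale (95% interval 0.02 to 0.65), and did not pass the test (unadjusted p = 0.0385, limma adjusted p = 0.271). Bak1 exons overlap Ggnbp1 on the other strand, and the use of strand in the counting is not stated.

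Bax lies on chromosome 7 (chr7:45461697-45466898, minus strand, GRCm38). The 250 bases before its annotated start (RefSeq, GRCm38.p6, chr7:45466899-45467148, written 5′ to 3′ on the minus strand) are shown because Bax was the called member and its promoter holds a match to the p53 half-site consensus, in capitals:

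Bax upstream: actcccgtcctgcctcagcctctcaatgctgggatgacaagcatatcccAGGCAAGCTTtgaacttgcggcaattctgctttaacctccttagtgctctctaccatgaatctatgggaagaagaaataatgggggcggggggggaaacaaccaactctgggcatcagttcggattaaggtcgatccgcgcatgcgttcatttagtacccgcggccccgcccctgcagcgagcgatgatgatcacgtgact

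The match runs from 201 to 192 bases before the start and overlaps no CACGTG, and the consensus is the same on both strands. A promoter window here is 250 bases before to 50 after a start, and 8.36% of the 32851 mouse windows hold such a half-site. CACGTG, the E-box read by MYC-type factors, occurred once before and once after the Bax start and is found in 7.15% of all windows. GGGCGG, searched on both strands, occurred 3 times in the Bax window and is found in 35.7% of all windows. Of the 8 genes, 7 matched the promoter table, with 13 windows, and apart from Bax only 1 of the Bmf windows held a half-site. A match of letters describes the sequence and is not evidence of binding.

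Pmaip1 encodes Noxa, a BH3-only protein that binds Mcl1. It was at 1963, 2148 and 2321 normalized counts in Control and 11044, 4531 and 5013 in cKO libraries. All cKO libraries were higher than all Control libraries, and cKO replicate 1 was far above the other cKO libraries. The means were 2144 ± 179 and 6863 ± 3629 (SD, n = 3 each), a 3.20-fold difference and a log2 fold change of 1.56 ± 0.32 (SE; 95% interval 0.80 to 2.32). The gene did not pass the test (unadjusted p = 0.00193, limma adjusted p = 0.0911). Without cKO replicate 1 it passed, at a smaller change of 1.16 (limma adjusted p = 0.01002), and it also passed in DESeq2 on the recovered reads with all libraries (1.67, adjusted p = 4.03e-05). Leaving out that outlying library narrows the cKO spread of Pmaip1 by construction. The library with the highest Pmaip1 was the one with the most myeloid, dendritic and cycling marker signal, and the part of those cells in its level was not tested. cKO replicates 2 and 3 averaged 2.32-fold the level of Control replicates 1 and 2. Their summed myeloid markers (3783 and 4924 against 2406 and 2619) and dendritic cell markers (3811 and 4319 against 2454 and 2113) were also higher. Control replicate 3 had sums of 4641 and 3229 for these markers, with Pmaip1 at 2321. The first lay between those of cKO replicates 2 and 3, and the second below both. The part of such cells in the Pmaip1 difference between these libraries was not tested.

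Bbc3 encodes Puma, which binds all the main antiapoptotic proteins. It was at 1545, 1831 and 541 in Control and 1102, 4403 and 5692 in cKO libraries. The groups overlapped, because cKO replicate 1 lay below Control replicates 1 and 2. The means were 1306 ± 677 and 3732 ± 2368 (SD, n = 3 each), and the log2 fold change of 1.39 ± 0.70 (SE) had a 95% interval from -0.27 to 3.05 (limma adjusted p = 0.379). Control replicate 3 and cKO replicate 1 were the lowest of their condition, and within that pair cKO was 2.04-fold higher, while the mean of the other cKO libraries was 2.99-fold that of the other Control libraries. The first comparison uses the f/f Control without Cre and the second the wt/f Controls with Cre, so library and Control genotype cannot be told apart.

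The same 2 libraries were the 2 lowest of the 6 for 2208 of the 11001 genes tested (20.1%), Bcl2l11 among them. In the pathway lists they were also lowest in Bag6, Dynll2, Endog, Diablo and Foxo3, which were named after their values were seen. Bag6, a chaperone factor, was at 3183 and 3149 there against 6113 to 8164 in the other 4 libraries. Left out together, these libraries gave 3 called members, Bax, Pmaip1 (1.21) and Bbc3 (1.57, limma adjusted p = 4.09e-06), with 2.26% of all genes called. That pair was chosen after the data were seen, with its low Bbc3 values known, and removing the lowest library of each condition narrows the spread of Bbc3 by construction, so the call is no independent evidence for Bbc3. Leaving out cKO replicate 1 alone gave 2.12 (adjusted p = 0.111), and Control replicate 3 alone 0.85 (adjusted p = 0.571).

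**Figure D2:**
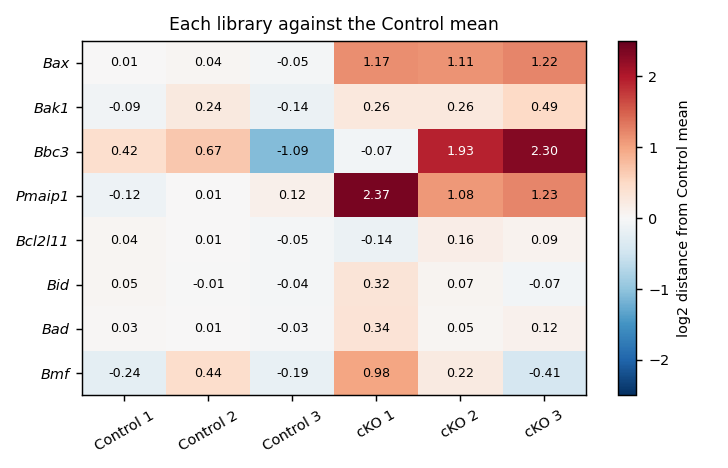
Log2 distance of each library (columns) from the Control mean for each proapoptotic gene (rows), printed in the cell and shown as colour from blue (lower) to red (higher). Bax is 1.11 to 1.22 above the Control mean in all 3 cKO libraries, while cKO replicate 1 holds the highest Pmaip1 (2.37) and Bmf (0.98) and a Bbc3 value near the Control mean (-0.07).

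Bcl2l11 encodes Bim, the BH3-only protein best known for deletion of T cells. It was at 2497, 2432 and 2336 in Control and 2196, 2710 and 2572 in cKO libraries. The groups overlapped, with cKO replicate 1 the lowest of all 6. The log2 fold change of 0.04 ± 0.11 (SE) had a 95% interval of -0.22 to 0.29 (limma adjusted p = 0.911), so a change the size of that of Bax lay outside the interval.

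Bid, which links death receptors and caspase 8 to mitochondria, was at 4500, 4321 and 4228 in Control and 5431, 4552 and 4157 in cKO libraries. The cKO libraries bracketed the Control libraries, with a log2 difference of 0.11 (95% interval -0.17 to 0.38, limma adjusted p = 0.712), which was 0.0005 without cKO replicate 1. Bad, which binds Bcl2 and Bcl-xL when it is not phosphorylated, was at 1594, 1571 and 1531 in Control and 1978, 1615 and 1695 in cKO libraries. Its groups did not overlap, but the lowest cKO library was only just above the highest Control library, and the log2 difference was 0.17 (95% interval -0.10 to 0.43, limma adjusted p = 0.509), or 0.08 without cKO replicate 1. Exons of Bid and Bad overlap those of Bcl2l13 and Gpr137 on the other strand.

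Bmf, a BH3-only protein associated with the cytoskeleton, was the lowest of the 8 genes, at 262, 420 and 271 in Control and 614, 360 and 233 in cKO libraries. The highest and the lowest of the 6 values were both cKO libraries. The log2 difference of 0.26 ± 0.38 (SE; 95% interval -0.63 to 1.15; limma adjusted p = 0.796) turned to -0.10 without cKO replicate 1.

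Counted over the 8 genes, all had a positive log2 fold change, with a median of 0.30 against 0.01 over the 11001 genes tested. The median ran from 0.22 to 0.47 with 1 library left out, and 7 of 8 were positive without cKO replicate 1 or without cKO replicate 2. An unadjusted p under 0.05 was reached by 3 of 8 (Bax, Pmaip1 and Bak1), against 16.7% of all genes. The conditions did not overlap in 4 of 8 (Bax, Bak1, Pmaip1 and Bad), each higher in cKO, against 12.6% of all genes that did so in that direction and 24.1% in either. An exact two-sided permutation test over 3 against 3 libraries cannot give a p under 0.1, which these 4 genes reached, while Bbc3 gave 0.3, Bid 0.6, Bmf 0.7 and Bcl2l11 0.8.

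**Figure D3:**
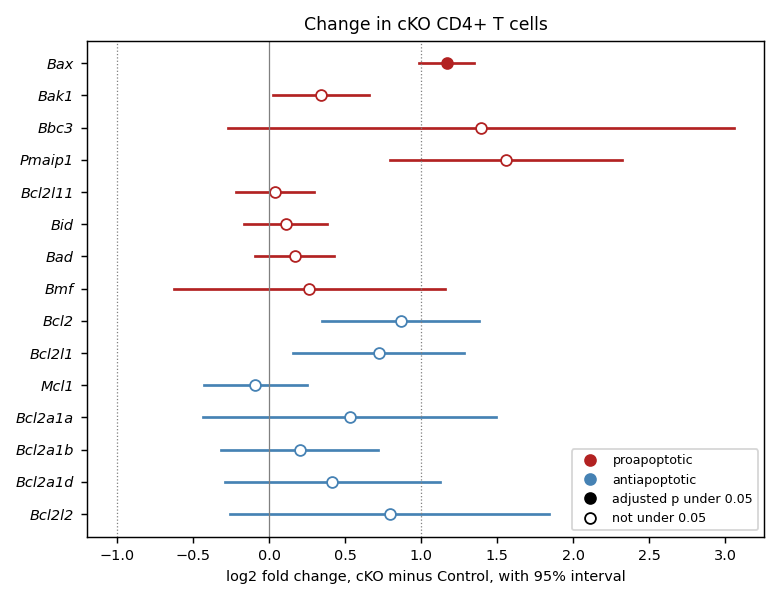
Log2 fold change, cKO minus Control (x axis), with its 95% interval for the 8 proapoptotic genes (red) and the 7 antiapoptotic genes tested (blue); filled points had a limma adjusted p under 0.05, and dotted lines mark a change of 1. Bax is the only filled point, with an interval of 0.98 to 1.35, and the interval of Bbc3 is the widest, from -0.27 to 3.05.

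Divided by exonic length, in normalized counts per kb, Bax was also the most abundant of the 8 genes in Control libraries (4053 ± 131, n = 3). Bid (1225 ± 39.0) and Bak1 (1095 ± 161) came next and did not differ beyond their spread, followed by Pmaip1 (785 ± 65.5). Bbc3 (615 ± 319) and Bad (612 ± 12.4) could not be ordered, and Bcl2l11 (302 ± 10.1) and Bmf (60.4 ± 16.9) were lowest. In cKO libraries Bax stood at 9098 ± 318, and Pmaip1 (2512 ± 1328) and Bbc3 (1757 ± 1115) had higher means than Bid (1328 ± 184) and Bak1 (1378 ± 129), within spreads that overlap.

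The genes whose log2 values followed Bax most closely over the 6 libraries were Phlda3 (Pearson r = 0.9995), Plk2 (0.9995), Fam216a (0.9974), Psrc1 (0.9966) and Drc1 (0.9964). These correlations are a description, since the points share the 2 conditions and any gene with tight, separate groups will score highly. Phlda3, an inhibitor of Akt signalling, and Plk2, a polo-like kinase, are known p53 targets. Their log2 fold changes were 3.46 (limma adjusted p = 0.00031) and 1.59 (0.00354). Psrc1 (3.49) and Drc1 (2.88) also passed (limma adjusted p = 0.00137 for each), whereas Fam216a differed by 0.35 and did not pass (limma adjusted p = 0.241).

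The antiapoptotic genes are the partners of these proteins. Of the 8 listed, 7 were tested, Bcl2l10 was listed at 0 in all libraries, and none passed the test in either direction (limma; 2 had an unadjusted p under 0.05), with a median log2 fold change of 0.53. That median is the value of Bcl2a1a and was 0.04 without cKO replicate 1, when 5 of 7 genes were positive and Bcl2 passed. Bcl2 was at 9687, 9746 and 6883 in Control and 11764, 17322 and 19210 in cKO libraries. All cKO libraries exceeded all Control libraries, and cKO replicate 1 and Control replicate 3 were the lowest of their condition. The difference of 0.86 ± 0.22 (SE) had a limma adjusted p of 0.133, and of 0.0468 without cKO replicate 1 and 0.00455 in DESeq2. Leaving out cKO replicate 1, the lowest of the cKO libraries, narrows the cKO spread of Bcl2 by construction. Bcl2l1 was 0.72 higher (adjusted p = 0.212) with groups that did not overlap, or 0.47 without Control replicate 3, and Mcl1 differed by -0.09 (95% interval -0.43 to 0.24). The Bcl2a1 genes, which are near-identical copies whose reads may be split between them, had log2 differences of 0.53, 0.20 and 0.41 for Bcl2a1a, Bcl2a1b and Bcl2a1d, and each was highest in cKO replicate 1. Without that library the differences were 0.02, -0.05 and 0.04. Bcl2l2 was low, at 64.1 and 105.2 mean normalized counts.

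A ratio of counts of 2 genes within a library does not depend on the size factor. The log2 ratio of Bax to Bcl2 was -0.59, -0.57 and -0.16 in Control and 0.29, -0.33 and -0.37 in cKO libraries. These overlapped, and the difference of 0.30 gave an exact permutation p of 0.3. It was 0.09 without cKO replicate 1 and 0.44 without Control replicate 3. Bax to Mcl1 was 0.34, 0.36 and 0.04 in Control and 1.23, 1.56 and 1.73 in cKO libraries, a difference of 1.26. Pmaip1 to Mcl1, the pair of Noxa and its main partner, went from a mean of -1.33 ± 0.071 to 0.32 ± 0.47 (SD, n = 3 each). Bcl2l11 to Bcl2 was lower in every cKO library, at -2.42, -2.68 and -2.90 against -1.96, -2.002 and -1.56. The last 3 ratios separated the conditions and gave the smallest exact two-sided permutation p possible, 0.1, or 0.133 after Benjamini-Hochberg adjustment over the 4 pairs.

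**Figure D4:**
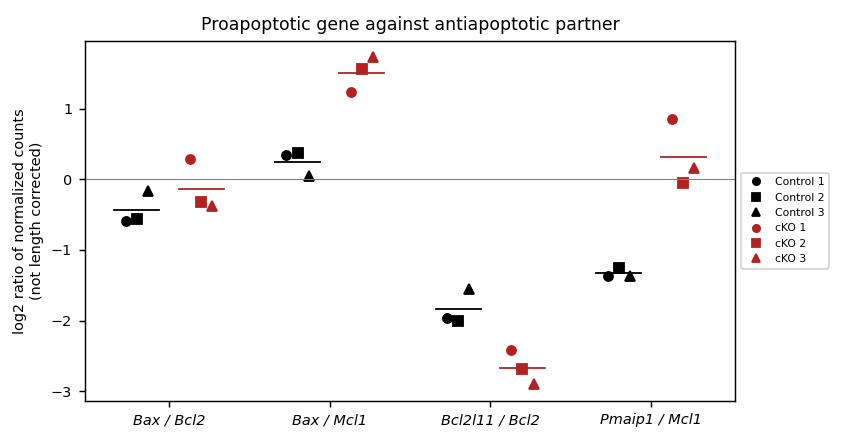
Log2 ratio of normalized counts (y axis, not corrected for gene length) for 4 pairs of a proapoptotic gene and an antiapoptotic partner in Control (black) and cKO (red) libraries, with lines at the means. The Bax to Mcl1 and Pmaip1 to Mcl1 ratios lie higher in all cKO libraries, by 1.26 and 1.65 on average, the Bcl2l11 to Bcl2 ratios lie lower, and the Bax to Bcl2 ratios overlap.

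Genes that act after or upon the 8 genes were taken from lists. Of the 14 genes of the mitochondrial death machinery, all were tested and none passed in either direction (limma; 2 had an unadjusted p under 0.05), with a median log2 fold change of 0.08 (0.03 without cKO replicate 1). In DESeq2, 1 of the 14 reached an adjusted p under 0.05, against 8.42% of all genes. Cycs, cytochrome c, was 0.51 higher (adjusted p = 0.123) and Apaf1, the apoptosome scaffold, 0.51 higher (adjusted p = 0.267), while Vdac2 and Casp6 differed by 0.19 and 0.17. Of 18 regulators, 17 were tested and none passed (limma; 3 had an unadjusted p under 0.05), with a median of 0.08. Trp53 was 0.49 higher (adjusted p = 0.138; 0.0136 in DESeq2), Pim1 0.43 higher (adjusted p = 0.218), Mdm2 0.27 higher (adjusted p = 0.294) and Foxo1, an activator of Bcl2l11 in T cells, differed by -0.22 (adjusted p = 0.375). Of 10 further family members, 6 were tested and none passed (limma; 1 had an unadjusted p under 0.05), with Bcl2l14 0.73 higher (adjusted p = 0.239), Bnip3 differing by -0.39, Bcl2l13 by 0.13 and Bnip3l by -0.04.

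Splicing was compared because U5-52K is part of the spliceosomal U5 particle. Of the 20 events listed for the 8 genes, 16 in Bax, Bak1, Bbc3, Bcl2l11 and Bid reached the minimum of 20 reads on average in each condition, and Pmaip1 and Bad had none listed. None of the 16 was called by a quasi-likelihood test on inclusion and skipping reads (adjusted p under 0.01 and a difference of at least 10 percentage points), and none had an unadjusted p under 0.05. Over all 5 event classes 260 of 55912 events were called, or 0.465%, with 0.495% of skipped exons, 0.584% of alternative 3′ and 1.08% of alternative 5′ splice sites and 0.181% of retained introns. The differences ran from -0.92 to 9.70 percentage points, 14 of 16 were under 1 point, and the smallest adjusted p was 0.600.

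The Bcl2l11 events at the intron and cassette exon below concern the choice between the known long and short forms of Bim. The other Bcl2l11 event tested is a skipped exon of 110 bases further downstream (chr2:128147085-128147194). It was included at 99.1% in Control and 99.6% in cKO on average (quasi-likelihood adjusted p = 0.758). Among annotated Bcl2l11 transcripts with the usual last coding exon, the coding length is 588 bases with both stretches below, 420 without the intron and 330 without either, and a further transcript that carries the cassette exon but ends in another exon has 273. The first stretch is the intron kept in the longest form (chr2:128128757-128128924, plus strand, 168 bases, 56 codons, GRCm38), with its splice-site dinucleotides in capitals. The second is the cassette exon that follows it directly (chr2:128128925-128129014, 90 bases, 30 codons). Both are multiples of 3 and leave the frame intact.

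Bcl2l11 intron: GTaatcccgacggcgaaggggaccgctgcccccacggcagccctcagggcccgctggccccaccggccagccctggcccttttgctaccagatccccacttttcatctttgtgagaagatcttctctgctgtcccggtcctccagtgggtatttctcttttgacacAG

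Bcl2l11 cassette exon: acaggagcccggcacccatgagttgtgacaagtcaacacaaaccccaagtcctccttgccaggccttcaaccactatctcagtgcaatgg

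Inclusion of the cassette exon was 92.12, 89.20 and 92.58% in Control and 100, 94.76 and 98.30% in cKO values. The values did not overlap, which held for 11.3% of all skipped-exon events tested. The skipping form was carried by 4, 4 and 2 reads in Control and 0, 3 and 1 in cKO, out of a mean of 59.3 and 74.7 reads, and the difference of 6.39 points had an adjusted p of 0.692 from the quasi-likelihood test. The alternative 5′ splice site event concerns the exon before the intron, which either ends there or runs through the intron and the cassette exon as 1 exon of 395 bases. Inclusion in this event was 87.0 ± 1.2% in the Control values and 96.7 ± 3.6% in the cKO values (SD, n = 3 each; difference 9.70 points; quasi-likelihood adjusted p = 0.600). This level is not the share of RNA that keeps the intron. Among RNA that carries the cassette exon, the retention event put that share at 27.9% in Control and 27.0% in cKO on average. RNA that skips the cassette exon is not counted in the retention event. Values of the alternative 5′ splice site event did not overlap between conditions either, as for 16.2% of its class. The event rests on the same skipping reads as the cassette exon and is not a second observation. Retention of the 168-base intron was 15.62, 43.09 and 24.91% in Control and 25.13, 29.94 and 25.78% in cKO, with a wide Control spread and no separation.

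In Bax, the optional bases at the start of the last exon were kept in 94.87, 94.20 and 94.58% of Control and 94.27, 94.68 and 94.22% of cKO reads, from a mean of 2002 and 5218 reads. The values overlapped, and the difference was -0.16 points (quasi-likelihood adjusted p = 0.950). The 4 bases (chr7:45461963-45461966, minus strand) are not a multiple of 3, and Bak1 has 5 such bases (chr17:27022873-27022877, minus strand), kept in 98.9% of Control and 99.5% of cKO reads on average. Both are shown within their transcripts, with the optional bases in capitals:

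Bax: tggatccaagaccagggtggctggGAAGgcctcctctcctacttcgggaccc

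Bak1: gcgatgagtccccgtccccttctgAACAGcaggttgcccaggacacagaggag

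The 4 skipped-exon events of Bax cover 3 exons, since 2 of them are 1 exon with different ends and the same skipping reads, and the exons were included in at least 99.4% of reads in both conditions on average, and no shift was detectable at this depth. The exons of Bbc3 were included at 99.1% or more on average, and the 4 Bid events tested differed by under 1 point.

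**Figure D5:**
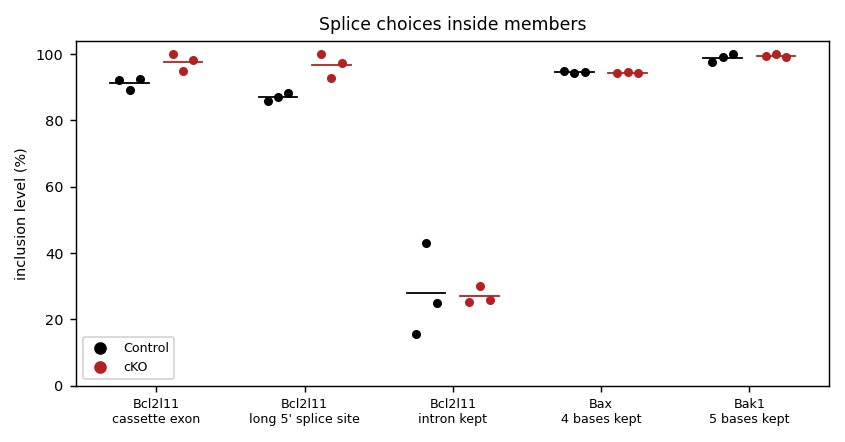
Inclusion level in percent (y axis, from 0) of 5 splice choices in Bcl2l11, Bax and Bak1, with the 3 values of each condition as points and their mean as a line. The values of the Bcl2l11 cassette exon and of the longer 5′ splice site lie higher in cKO (97.7 and 96.7% against 91.3 and 87.0%) on few skipping reads, and the Bax and Bak1 values coincide.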

How the data were processed

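CD4+ T cell RNA from 3 Control and 3 cKO libraries was analysed. Reads were trimmed with cutadapt, aligned with STAR to GRCm38 and counted with featureCounts by the authors, whose deposited normalized counts (signal) are reads divided by DESeq2 size factors. All values, within 0.01 reads, were whole multiples of 1 read, and the recovered reads served the count tests. The deposited splicing tables give rMATS inclusion and skipping read counts per event, other than expression units, as 3 values per condition with no library names, the first sample being Control. The authors' own fold changes and p-values were not used, nor were their averages. Fold changes and tests were computed with limma 3.58.1 (R 4.3.3) with a trended prior on log2(normalized count + 1), over the 11001 named genes whose average reached 100 normalized counts in 1 condition or both, with Benjamini-Hochberg adjustment. Such fold changes understate those of low genes. edgeR 4.0.16 and DESeq2 1.42.0 on whole reads were alternatives. Splicing was tested by a quasi-binomial model with a moderated dispersion, over events averaging 20 or more reads in each condition. The dispersion prior used events averaging 5 or more reads of the rarer form, a choice taken from earlier work on these data. Both tests were tested on simulated data; the first simulation of splicing gave no calls, and it was then redrawn with the dispersion of the real events, so the later result rests on that second simulation. No library pair agreed within sampling noise. Members and lists were chosen with earlier results of these data known. All 8 members, the antiapoptotic genes, the 4 genes of smallest p in each other list, the 5 genes most like a called member and every tested event were named. Other alternatives were scalings, filters, pseudocounts and leaving out libraries.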

Additional observations from a re-analysis of the deposited data

How the results depend on the processing

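Bax was called under each of the 8 changes of scaling, pseudocount, filter, variance model or test, with log2 fold changes of 1.12 to 1.17, and of 1.14 to 1.19 without each library in turn. The number of members called, and the number at adjusted p under 0.05, was 1 except for 2 (Bax and Pmaip1) in DESeq2 and without cKO replicate 1, and 3 without Control replicate 3 and cKO replicate 1 together, a setting added after the data were seen, so it ran from 1 to 3 when libraries were left out. DESeq2 called 236 genes in all against 62. The direction turned for Bmf (-0.098 without cKO replicate 1, -0.195 without both libraries), Bid (-0.0198 without both) and Bcl2l11 (-0.0268 without cKO replicate 2), none of which was called. With single libraries left out Bmf ran up to 0.601 and Bcl2l11 up to 0.125. Without the second Control value, the inclusion difference of a further Bcl2l11 exon turned to -0.40 points and that of its retained intron to 6.68 points. No splicing event was called in any alternative, although an unadjusted p under 0.05 was reached by 2 with the prior over all events, and by 1 each without the second Control value and without the third cKO value. The cause of these shifts was not tested. No paired analysis was possible because the labels give the 2 conditions no shared replicate numbers. The 2 Bcl2l11 events with the largest differences rest on at most 4 skipping reads per library, which limits what can be detected.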
